A study of Mus musculus with 12 samples.

Results

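Dopaminergic (DA) neurons of the ventral midbrain fall into subtypes, and 10 genes that mark them were followed across age in the ventral tegmental area (VTA) of the mouse. 5 of the genes are enriched in DA neurons of VTA (Calb1, Slc17a6, Lpl, Tacr3 and Neurod6) and 5 in those of substantia nigra pars compacta (SNpc; Aldh1a1, Aldh1a7, Sncg, Fgf20 and Zdhhc2). Every probe set of the array whose annotation names 1 of these genes and no other was taken, called or not, which gave 20 of the 45037 probe sets tested and 10 of the 18193 genes named by at least 1 such probe set. VTA was dissected from wild-type C57 mice (C57BL/6 in the methods of the study) at 2 months (young), 10 months (middle aged) and 18 months (late-middle aged), with no treatment and no transgene. Each age had 4 Affymetrix expression arrays, and each array held RNA pooled from 5 mice. The deposited values are log2 expression levels, so that a difference of 1 is a doubling, and a level at 1 probe set cannot be set against the level at another.

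VTA and SNpc lie side by side and their DA neurons make dopamine with the same enzymes, but they differ in targets and in vulnerability. DA neurons of SNpc project to the dorsal striatum and are lost in Parkinson's disease, while those of VTA project to the ventral striatum and cortex and are relatively spared. Calbindin (Calb1) labels many of the spared cells, and the aldehyde dehydrogenase Aldh1a1 labels the ventral tier of SNpc and part of VTA, so the markers describe an enrichment and not an absolute border. The enrichment itself was not measured, since only VTA was analysed here, and the tissue was the whole dissected region and not sorted neurons. A lower signal from fewer cells of a type cannot be told apart from a lower signal from less RNA per cell, and the same holds for a higher one.

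Aldh1a1 and Aldh1a7 are related genes that lie next to each other on chromosome 19, with no coding gene between them in the reference gene table. Their promoters are shown because no other pair of the markers lies side by side, and because their levels over the same arrays are compared further on. The 250 bases before each transcription start come from RefSeq (GRCm38.p6, chr19:20601718-20601967 on the plus strand for Aldh1a1 and chr19:20727557-20727806 on the minus strand for Aldh1a7). Capitals mark the longest run that both share.
Aldh1a1: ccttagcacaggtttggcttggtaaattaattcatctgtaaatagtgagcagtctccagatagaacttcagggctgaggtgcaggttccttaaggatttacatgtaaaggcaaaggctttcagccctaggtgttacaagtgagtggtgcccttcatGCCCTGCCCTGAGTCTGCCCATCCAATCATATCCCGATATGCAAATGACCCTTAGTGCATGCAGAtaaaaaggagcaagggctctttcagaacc
Aldh1a7: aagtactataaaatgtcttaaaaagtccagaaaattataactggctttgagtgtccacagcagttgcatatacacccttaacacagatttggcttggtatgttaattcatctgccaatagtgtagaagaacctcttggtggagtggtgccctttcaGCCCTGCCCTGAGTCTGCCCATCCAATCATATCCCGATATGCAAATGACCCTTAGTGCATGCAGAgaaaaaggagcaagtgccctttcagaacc
The shared run is 65 bases long, and it lies 94 to 30 bases before the start in both genes. Over the whole window the alignment had 185 identical bases in 272 columns, or 68.0%. The other Aldh1a1 start in the table gave 53.9%. Both runs hold the octamer ATGCAAAT at 56 bases before the start, a motif found on either strand in 1.6% of the 32851 promoters of the same length, and the letters CCAAT at 72 bases before the start, found in 33.8% of them. The letters CCAAT are found a further time in the Aldh1a7 promoter, at 137 bases before the start, outside the shared run. The octamer and CCAAT matches do not overlap. These are matches of letters and not binding sites. A promoter entry was found for 6 of the 10 markers, and Calb1, Lpl, Fgf20 and Zdhhc2 had none. Fgf20 and Zdhhc2 are also close to each other, on chromosome 8 with 1 coding gene, Micu3, between them.

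Genes of DA neurons gave signals from near the top of the scale to well below it in the dissected tissue. The transcription factor En1 averaged 7.41, 7.12 and 6.87 at 2, 10 and 18 months. Slc6a3, the dopamine transporter, averaged 13.92 ± 0.10, 14.02 ± 0.07 and 14.12 ± 0.05 at 2, 10 and 18 months on a scale that ran from 2.40 to 14.7 (SD; n = 3, 4 and 4). Array medians were 6.11 to 6.21, lower quartiles 4.48 to 4.65 and upper quartiles 8.27 to 8.45, and 9 of the 20 marker probe sets exceeded the upper quartile on all arrays. Arrays 3 and 4 at 2 months were nearly the same (r = 0.998 across probe sets, where the 17 remaining same-age pairs gave 0.967 to 0.996). Between them 1 probe set differed by more than 1, against 85 to 4905 in the other pairs. Since they agreed more closely than any such pair, their mean was counted as 1 sample, and n was 3 at 2 months. A measure of how far the labeled RNA reached along a transcript moved with age. This measure, the 3 prime minus 5 prime difference of the Actb and Gapdh control probe sets, averaged 1.98 ± 0.24 at 18 months and 3.47 ± 0.17 at 2 months (exact two-sided permutation test, p = 0.0286, adjusted p = 0.0343 over 6 tests), and 2.15 ± 0.34 at 10 months. No array at 10 or 18 months overlapped those at 2 months in this measure, so it cannot be told apart from age in any comparison with 2 months. The poly-A control RNAs that are added to each sample averaged 7.04 ± 0.34 at 18 months, against 6.15 ± 0.13 at 2 months (exact p = 0.0286, the smallest that 4 against 3 samples allow). At 10 months they averaged 6.48 ± 0.08, and the arrays of the 3 ages did not overlap (exact p = 0.0286 and adjusted p = 0.0343 in each comparison), so that this measure cannot be told apart from age at 18 against 10 months either.

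Of the subtype markers, Calb1 and Fgf20 were called higher at 18 than at 2 months, and none was called lower. A probe set was called when limma gave an adjusted p under 0.05 (Benjamini-Hochberg over all 45037 probe sets) and a change above 1.3-fold. At 18 against 2 months, 3 of the 20 probe sets were called higher, where 4.55% of all probe sets were, and 0 of 20 were called lower, where 2.91% were (7 of 20 had an unadjusted p under 0.05). The share of all probe sets under that unadjusted p was not counted in this fit, and it need not equal the threshold. Counts of unadjusted p from this fit, here and below, therefore have no background to be read against. The calls fell on Calb1, at 2 of its 4 probe sets, and on Fgf20. With each gene represented by its brightest probe set, the one with the highest mean, 2 of 10 genes were called higher (5.77% of all genes) and 0 lower (3.05% of all genes). The VTA markers and the SNpc markers held 1 call each among 5 genes. The median change of the 10 genes was 0.21 on the log2 scale, with 7 positive and 3 negative, and the median of all genes was −0.02. With arrays centered on their medians, 2528 probe sets were called higher and 927 lower at 18 against 2 months, against 2047 and 1312 without centering, and the 3 calls among the markers did not change in number.

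**Figure D1:**
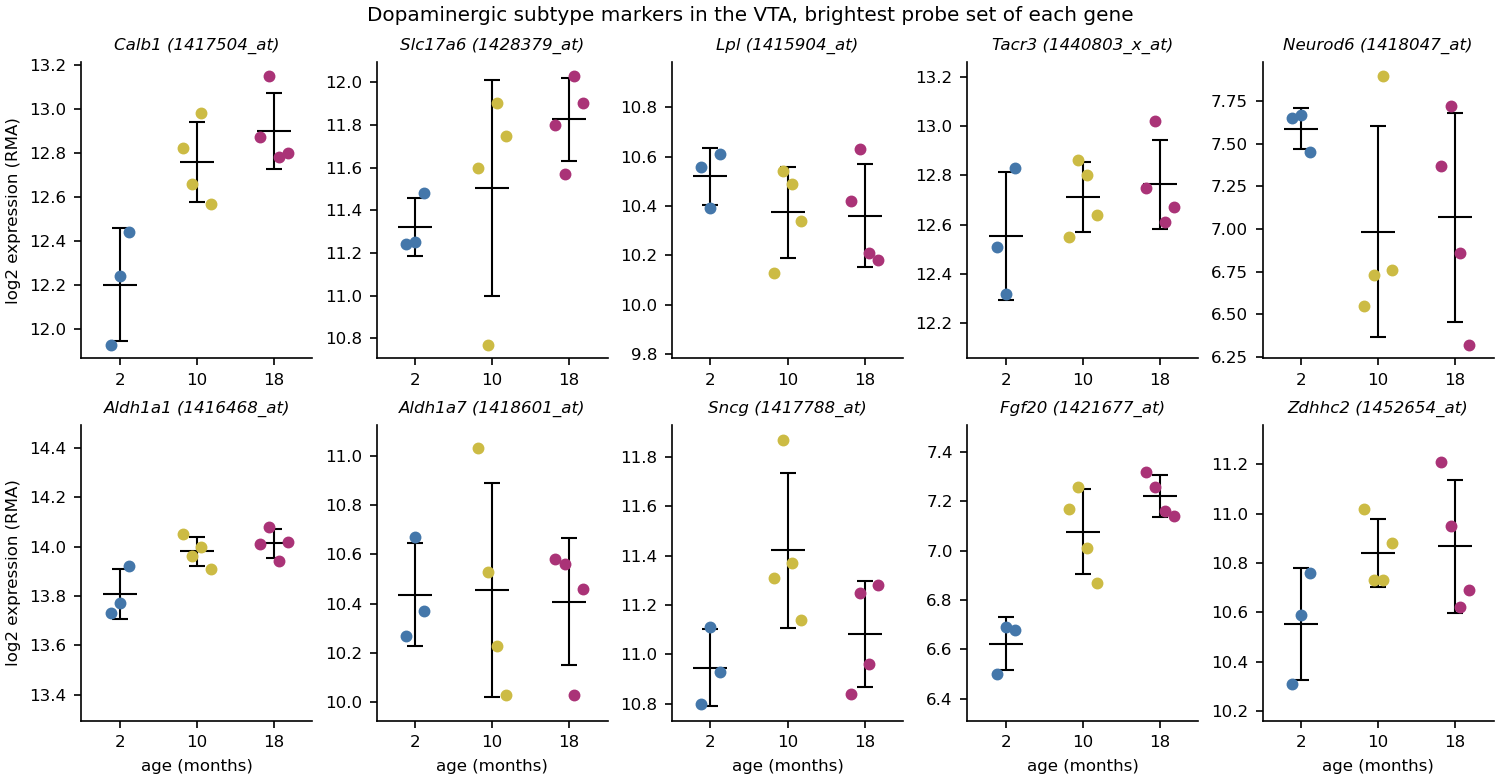
Log2 level of each of the 10 subtype markers at its brightest probe set (vertical axes, each with its own range) at 2, 10 and 18 months (horizontal axis). Points are samples, with young arrays 3 and 4 as their mean, and bars are the mean and SD (n = 3, 4 and 4). Calb1 and Fgf20 have all samples at 10 and 18 months above those at 2 months.

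Calb1, a calcium-binding protein that buffers calcium in the cytosol, was the VTA marker that was called. Differences in change between the markers were not tested. At its brightest probe set, 1417504_at, the levels were 11.93, 12.24 and 12.44 at 2 months, 12.82, 12.66, 12.98 and 12.57 at 10 months, and 12.87, 13.15, 12.78 and 12.80 at 18 months. The lowest pool at either later age lay above the highest at 2 months, and the 10 and 18 months pools overlapped. The level was 1.62-fold higher at 18 months than at 2 months (log2 change 0.70 ± 0.15 SE, 95% interval 0.37 to 1.02, limma adjusted p = 0.0199). At 10 against 2 months the difference was 0.55 ± 0.15 and did not pass (adjusted p = 0.0905), and at 18 against 10 months it was 0.14 ± 0.14 (adjusted p = 0.852). The call was lost without a young pool: without 2 months array 1 the change was 0.56 with an adjusted p of 0.117, and without 2 months array 2 the adjusted p was 0.0539.

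The other probe sets of Calb1 gave a mixed picture. 1458836_at, a dim probe set that lay below the lower quartile on 5 of the 12 arrays, was also called higher at 18 months (0.65 ± 0.17, adjusted p = 0.0410), with levels of 4.67, 5.48, 4.97 and 5.32 at 18 months, against 4.51, 4.44 and 4.44 at 2 months. It was called in 5 of the 12 fits that left out 1 array, in which its change ran from 0.52 to 0.79. 1456934_at differed by 0.37 ± 0.21 (adjusted p = 0.305), with no overlap between 18 and 2 months once young arrays 3 and 4 were averaged. Before averaging, 2 months array 3 was at 8.46, as was 18 months array 3. Its 10 months pools, at 8.29 to 9.05, overlapped both ages. 1448738_at differed by −0.04 ± 0.36 (95% interval −0.82 to 0.75). The mean of all 4 probe sets differed by 0.42 ± 0.18, which did not pass (adjusted p = 0.195).

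Fgf20, a secreted growth factor that supports the survival of DA neurons, was the SNpc marker that was called, and it had 1 probe set, 1421677_at. The levels were 6.50, 6.69 and 6.68 at 2 months, 7.17, 7.26, 7.01 and 6.87 at 10 months, and 7.32, 7.26, 7.16 and 7.14 at 18 months. Every pool at 10 and 18 months was above every young pool, and the 10 and 18 months pools overlapped. The level was 1.51-fold higher at 18 months than at 2 months (0.59 ± 0.11, 95% interval 0.34 to 0.84, adjusted p = 0.0131). At 10 against 2 months it differed by 0.45 ± 0.11 and did not pass (adjusted p = 0.0762), while with the 12 arrays as separate samples it passed (0.44, adjusted p = 0.0472). The 18 against 2 months call was lost without 2 months array 1 (0.53, adjusted p = 0.0856).

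The calls for Calb1 and Fgf20 were lost once the 3 prime minus 5 prime measure entered the fit. With it as a covariate the change at 18 against 2 months was 0.50 ± 0.43 for Calb1 at 1417504_at and 0.55 ± 0.33 for Fgf20, both positive and neither past the threshold. The covariate raised the median SE of the 20 probe sets to 0.54, against 0.19 without it, and it left 0 calls by limma among all probe sets, with 3.88% of all probe sets and 0 of the 20 at an unadjusted p under 0.05. At 2 months the measure and age cannot be told apart.

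**Figure D2:**
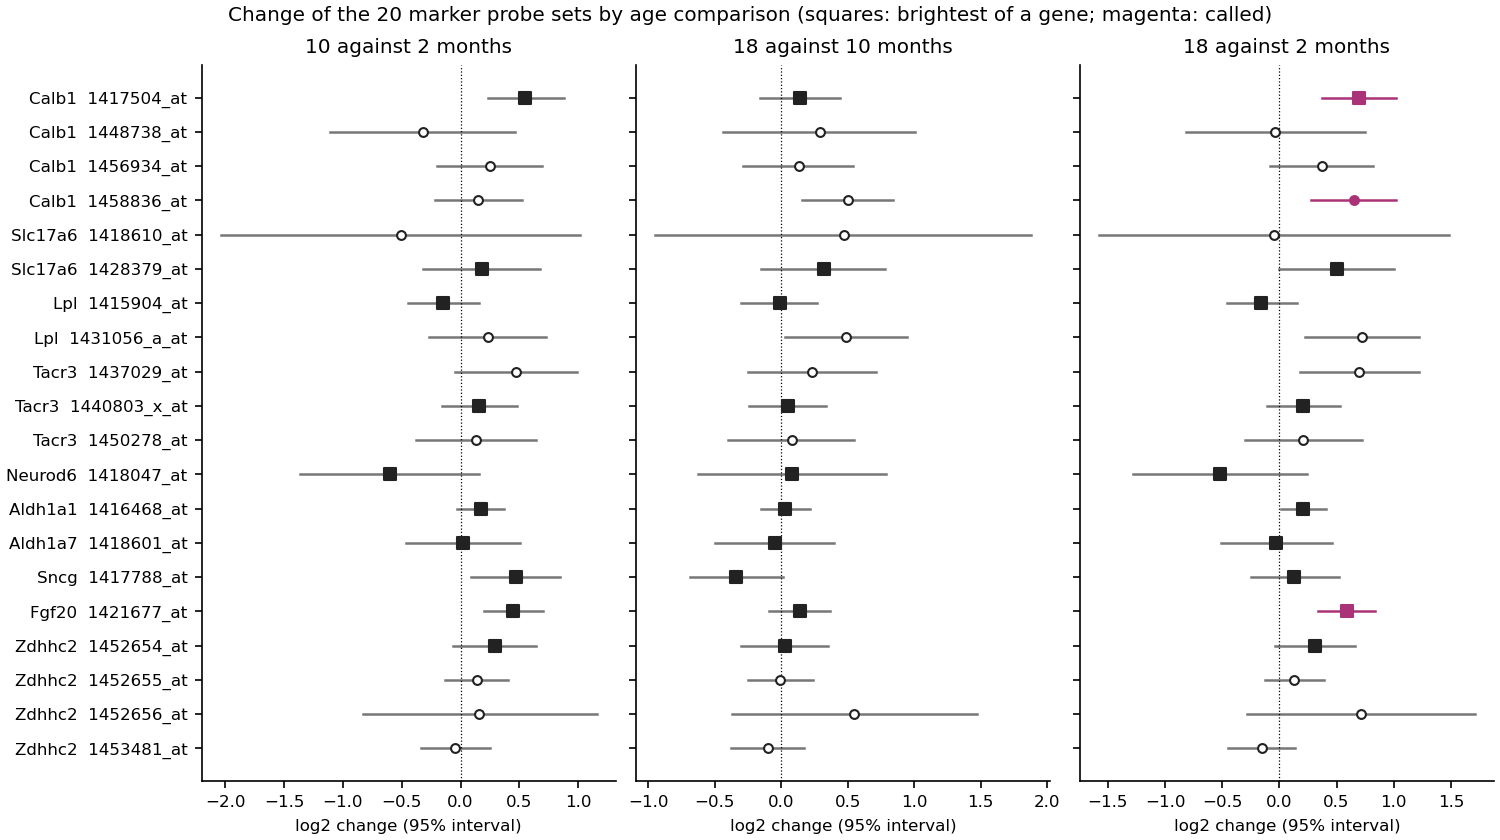
Log2 change of the 20 probe sets of the subtype markers (rows) for 10 against 2, 18 against 10 and 18 against 2 months (panels), with 95% intervals from limma on the horizontal axes. Squares are the brightest probe set of a gene, open circles the others and magenta points the called ones, of which there are 3 at 18 against 2 months, for Calb1 and Fgf20, and none in the other panels.

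The other VTA markers did not pass the test in any comparison. Slc17a6 encodes VGLUT2, the vesicular glutamate transporter of DA neurons that also release glutamate. At 1428379_at its levels were 11.80, 11.57, 12.03 and 11.90 at 18 months, against 11.24, 11.25 and 11.48 at 2 months. The 18 and 2 months pools did not overlap, and the change of 0.50 ± 0.23 had an adjusted p of 0.212. At 10 months the levels ran from 10.77 to 11.90. Without 10 months array 2, which had the lowest of them, the change between 18 and 2 months passed (adjusted p = 0.0410). That array entered the spread shared by all ages and not the difference itself. Slc17a7, which encodes the vesicular glutamate transporter of cortical neurons, lay below the lower quartile on all arrays.

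Lpl, lipoprotein lipase, releases fatty acids from lipoproteins, and its probe sets went opposite ways. The brighter, 1415904_at, had 10.42, 10.63, 10.21 and 10.18 at 18 months, against 10.56, 10.39 and 10.61 at 2 months, a difference of −0.16 ± 0.14 (95% interval −0.46 to 0.15, adjusted p = 0.540). 1431056_a_at had 6.30, 6.68, 6.18 and 6.24 at 18 months, against 5.45, 5.76 and 5.67 at 2 months, a difference of 0.72 ± 0.23 (adjusted p = 0.0773). At 10 months they ran from 10.13 to 10.54 and from 5.51 to 6.58. The 18 and 2 months pools did not overlap at the dimmer probe set, and it passed without 10 months array 3 (adjusted p = 0.00818), with the 12 arrays as separate samples (adjusted p = 0.0420) and with array weights (adjusted p = 0.0133). Of 5 partners of lipoprotein lipase measured, 1 was called: Apoe, the main lipoprotein carrier of the brain, was higher by 0.74 ± 0.14 at 18 against 2 months (adjusted p = 0.0122) and by 0.75 ± 0.14 at 10 against 2 months (adjusted p = 0.0396). Microglia also make Lpl and Apoe. Of 5 microglial markers, P2ry12 was called higher at 18 against 2 months at its brightest probe set (1.58 ± 0.23, adjusted p = 0.00513). It was called higher at 10 against 2 months as well (1.05 ± 0.23, adjusted p = 0.0496). Csf1r was called higher in both comparisons at another of its probe sets, while its brightest differed by −0.18 ± 0.22 at 18 against 2 months (adjusted p = 0.694). The remaining microglial markers differed by 0.14 to 1.08 at 18 against 2 months and were not called. The mean of the 5 at their brightest probe sets ran from 9.02 to 9.43 at 18 months, against 8.45 to 8.81 at 2 months. The part of microglial RNA in the Lpl values was not tested.

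Tacr3, the neurokinin 3 receptor for neurokinin B, had 3 probe sets. At 1437029_at the levels were 11.32, 12.09, 11.28 and 11.62 at 18 months, against 10.73, 10.91 and 10.98 at 2 months. At 10 months they ran from 10.97 to 11.95. The 18 and 2 months pools did not overlap, the change was 0.70 ± 0.24 and the adjusted p was 0.0963. It was 0.0287 without 10 months array 3 and 0.0395 with array weights. The array left out entered the spread shared by all ages and not the difference itself. The differences at the brightest, 1440803_x_at, and at 1450278_at were 0.21 ± 0.15 and 0.21 ± 0.23 (adjusted p = 0.429 and 0.643). Of the tachykinin ligands and receptors Tac1, Tac2 and Tacr1, 0 of 3 were called by limma, and 0 had an unadjusted p under 0.05.

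Neurod6, a transcription factor of a subset of VTA DA neurons, had the lowest change among the markers. Its levels at 1418047_at were 7.65, 7.67 and 7.45 at 2 months, 6.55, 6.73, 7.90 and 6.76 at 10 months, and 7.37, 7.72, 6.86 and 6.32 at 18 months. 10 months array 3 was higher than the other 10 months arrays, and the ages overlapped. The difference at 18 against 2 months was −0.52 ± 0.35 (95% interval −1.28 to 0.24, adjusted p = 0.406). Neurod6 is also made by neurons of cortex and hippocampus. Of their markers, Neurod2 was called lower at its brightest probe set (−0.52 ± 0.11, adjusted p = 0.0193). The 2 other probe sets of Neurod2 differed by −0.10 and 0.03 and were not called. Tbr1 lay below the lower quartile on all arrays. The mean of Neurod2 and Tbr1 at their brightest probe sets ran from 4.86 to 5.08 at 18 months, against 5.11 to 5.16 at 2 months. The part of such tissue in the Neurod6 values was not tested.

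The other SNpc markers were not called either, and the precision differed widely among them. Aldh1a1 oxidizes retinaldehyde to retinoic acid and clears the aldehyde made from dopamine. Its residual SD within an age was 0.07, the lowest among the 20 probe sets, at levels of 13.73 to 14.08 on the scale that ended at 14.7. Other genes near the top of the scale also spread little, with SDs of 0.05 to 0.10 within an age for Slc6a3 and of 0.02 to 0.08 for Mbp, a myelin protein, and whether changes are compressed at such levels was not tested. Its levels at 1416468_at were 14.01, 14.08, 13.94 and 14.02 at 18 months, against 13.73, 13.77 and 13.92 at 2 months. At 10 months they ran from 13.91 to 14.05. The 18 and 2 months pools did not overlap, and the change of 0.21 ± 0.09 (1.15-fold, 95% interval 0.01 to 0.41, adjusted p = 0.198) was under the fold threshold as well.

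Aldh1a7, an aldehyde dehydrogenase of rodents close in sequence to Aldh1a1, spread more. Its levels at 1418601_at were 10.58, 10.56, 10.03 and 10.46 at 18 months, against 10.27, 10.67 and 10.37 at 2 months, and the ages overlapped. The 10 months pools spread most, from 10.03 to 11.03. The change at 18 against 2 months was −0.03 ± 0.22 (95% interval −0.51 to 0.46). Across the 11 samples Aldh1a1 and Aldh1a7 correlated at r = 0.29, or 0.53 with the mean of each age removed, a description over samples that share ages and arrays. Whether the probes of one also bind the other was not tested. Of the genes of retinoic acid metabolism and reception, 0 of 11 measured were called by limma at 18 against 2 months, and 2 had an unadjusted p under 0.05.

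Sncg, gamma-synuclein, is a small protein of nerve terminals and axons related to the synuclein of Lewy bodies. Its levels at 1417788_at were 10.80, 11.11 and 10.93 at 2 months, 11.31, 11.87, 11.37 and 11.14 at 10 months, and 10.84, 11.25, 10.96 and 11.28 at 18 months. All 10 months pools lay above the 2 months pools, and the 18 months pools overlapped both. The difference was 0.47 ± 0.17 at 10 against 2 months (adjusted p = 0.202), and 0.13 ± 0.17 at 18 against 2 months, and neither passed. At 18 against 10 months it was −0.34 ± 0.16 (adjusted p = 0.847). Sncb, the 1 other synuclein measured, differed by −0.40 ± 0.18 at 18 against 2 months (adjusted p = 0.194).

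Zdhhc2 is an enzyme that attaches palmitate to synaptic proteins, and it had 4 probe sets. The brightest, 1452654_at, had 11.21, 10.95, 10.62 and 10.69 at 18 months, against 10.31, 10.59 and 10.76 at 2 months, and the ages overlapped (0.31 ± 0.16, adjusted p = 0.263). The 10 months pools, at 10.73 to 11.02, lay within the range of the others. 1452656_at had no overlap between 18 and 2 months but spread widely (0.71 ± 0.45, adjusted p = 0.380). 1452655_at and 1453481_at differed by 0.13 ± 0.12 and −0.15 ± 0.14. Of the FGF receptors and the closest relatives of Fgf20, 0 of 5 were called by limma at their brightest probe sets (1 at an unadjusted p under 0.05). Another probe set of Fgfr2 was called higher at 18 against 2 and at 10 against 2 months, and Fgf16 lay below the lower quartile on all arrays.

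Seen by overlap alone, 9 of the 20 probe sets had all 18 months pools above all 2 months pools, and 0 had all below. Of all probe sets 10.4% had the higher pattern and 13.1% the lower. The 9 were at Calb1 (3 probe sets), Slc17a6, Lpl, Tacr3, Aldh1a1, Fgf20 and Zdhhc2. Of these, Calb1 at 1456934_at was free of overlap only with young arrays 3 and 4 averaged. The difference between 9 of 20 and 10.4% was not tested, and the 9 probe sets share the same 3 young samples. At 10 against 2 months the higher pattern was found at 3 of 20 probe sets, for Calb1, Sncg and Fgf20, and at 6.35% of all.

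At 10 months no marker was called against 2 months. The counts were 0 of 20 probe sets (1.36% of all) and 0 of 10 genes (1.48% of all), with 3 probe sets at an unadjusted p under 0.05 and the lowest adjusted p at 0.0762, for Fgf20. The median change of the 20 probe sets was 0.16, with 15 positive, and that of all probe sets was −0.01. This comparison and that of 18 with 2 months share the 2 months samples. At 18 against 10 months 0 of 20 were called, where 0.00222% of all probe sets were, or 1 in all, and 2 of 20 had an unadjusted p under 0.05. The share of all probe sets at an unadjusted p under 0.05 was not counted in either comparison. At 18 against 10 months the lowest adjusted p was 0.847, and the median change was 0.10 for the 20 and −0.03 for all probe sets.

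Probe sets of the same gene gave different changes, and the samples are too few to test each difference. In 10 pairs of the brightest probe set with another of its gene, the largest gap in change was in Lpl (−0.88, exact permutation test p = 0.0286, the smallest that 4 against 3 samples allow, adjusted p = 0.214 over 10). At least 6 of the 10 pairs would have had to reach that p for any to pass after adjustment. The gap was 0.73 in Calb1 (1417504_at against 1448738_at, exact p = 0.0857, adjusted p = 0.214) and −0.49 in Tacr3 (exact p = 0.0857). Within genes, correlations between probe sets over the 11 samples ran from −0.29 to 0.74.

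**Figure D3:**
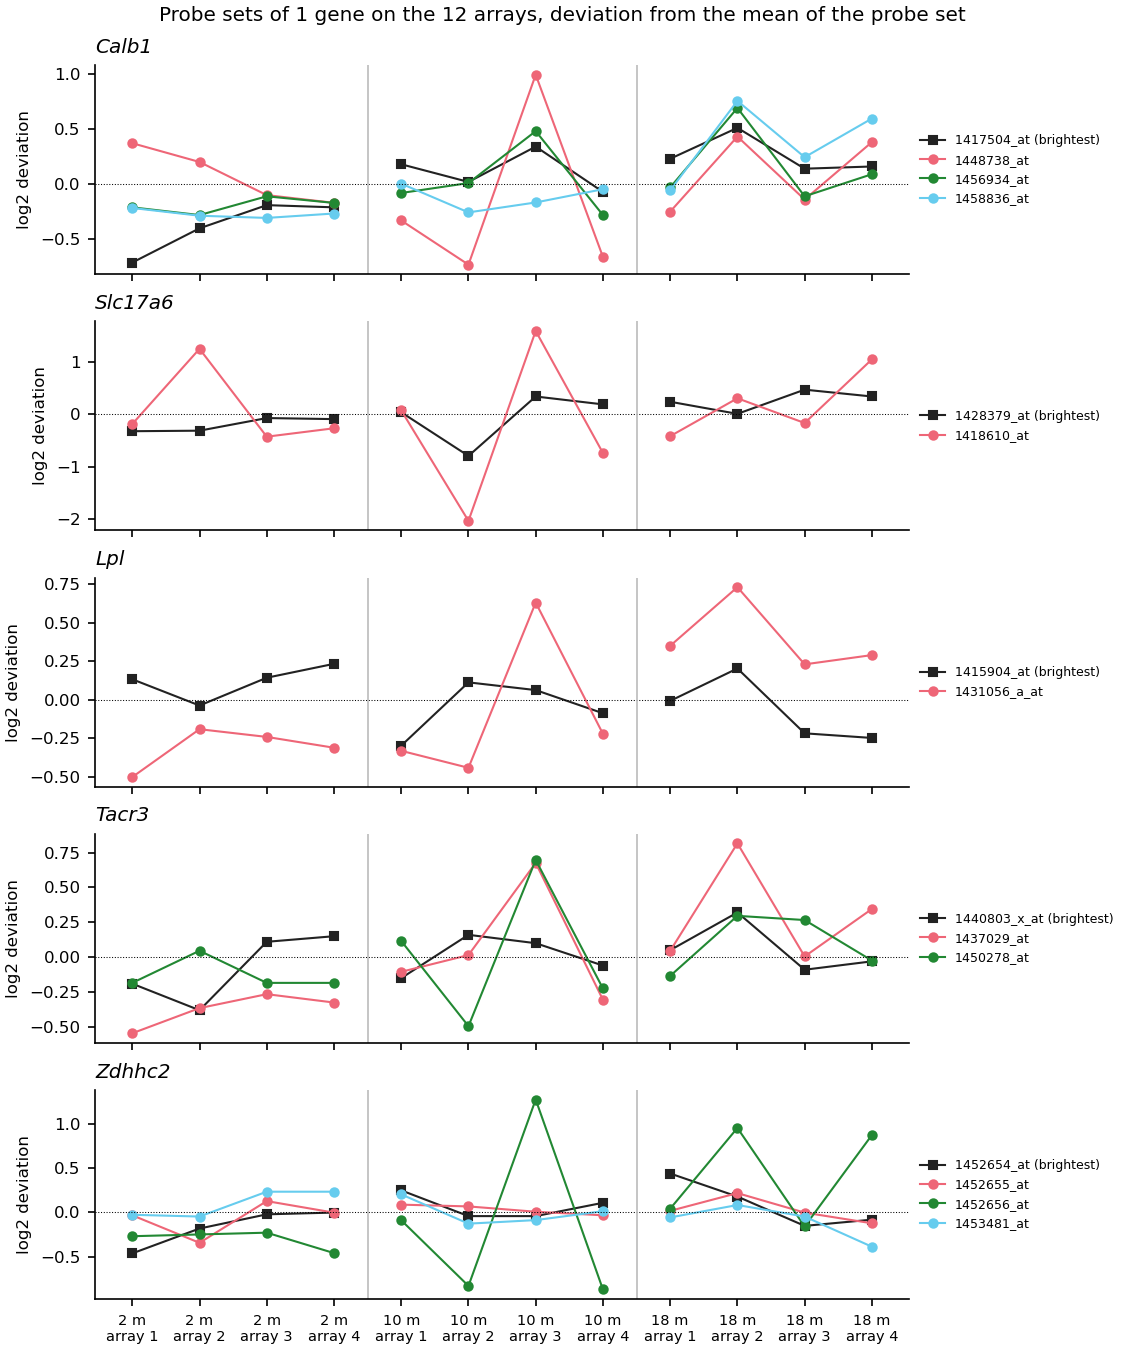
Log2 levels of the markers with several probe sets (Calb1, Slc17a6, Lpl, Tacr3 and Zdhhc2), as the deviation from the mean of each probe set (vertical axes), on the 12 arrays at 2, 10 and 18 months (horizontal axis). Each line is a probe set, and 10 months array 3 is high in Slc17a6 at 1418610_at, Calb1 at 1448738_at and Zdhhc2 at 1452656_at but not at the brightest Zdhhc2 probe set.

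Several of these probe sets followed the main axis of variation between the arrays. Of the variance over all probe sets, 43.8% lay on the first principal component. On its positive side lay 2 months array 2, 10 months array 3 and 18 months arrays 2 and 4, an array from every age. The score of 2 months array 2 was 18.1, against 45.6 to 72.2 for the others on that side. Over the 12 arrays the component correlated with the levels at 0.94 for Zdhhc2 at 1452656_at, 0.88 for Slc17a6 at 1418610_at and 0.86 for Calb1 at 1448738_at. The correlation was 0.80 for Tacr3 at 1450278_at and 0.79 for Lpl at 1431056_a_at. At the called probe sets it was 0.58 for Calb1 at 1458836_at, 0.48 for Calb1 at 1417504_at and 0.21 for Fgf20. At 10 months Slc17a6 1418610_at ran from 7.39 to 11.00, a 12.2-fold range, with a residual SD of 1.10, and its change at 18 against 2 months of −0.05 ± 0.70 has an interval of −1.58 to 1.48. A fit without the 4 arrays on the positive side was a choice made after the values were seen. It left array 1 and the mean of arrays 3 and 4 at 2 months, and arrays 1 and 3 at 18 months. On these few samples Fgf20 (0.65 ± 0.16, adjusted p = 0.0428) and Lpl at 1431056_a_at (0.68 ± 0.14, adjusted p = 0.0267) passed at 18 against 2 months. Calb1 passed neither at 1417504_at (0.64, adjusted p = 0.0579) nor at 1458836_at, where the change was 0.35 (adjusted p = 0.196). What the component measures was not tested.

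**Figure D4:**
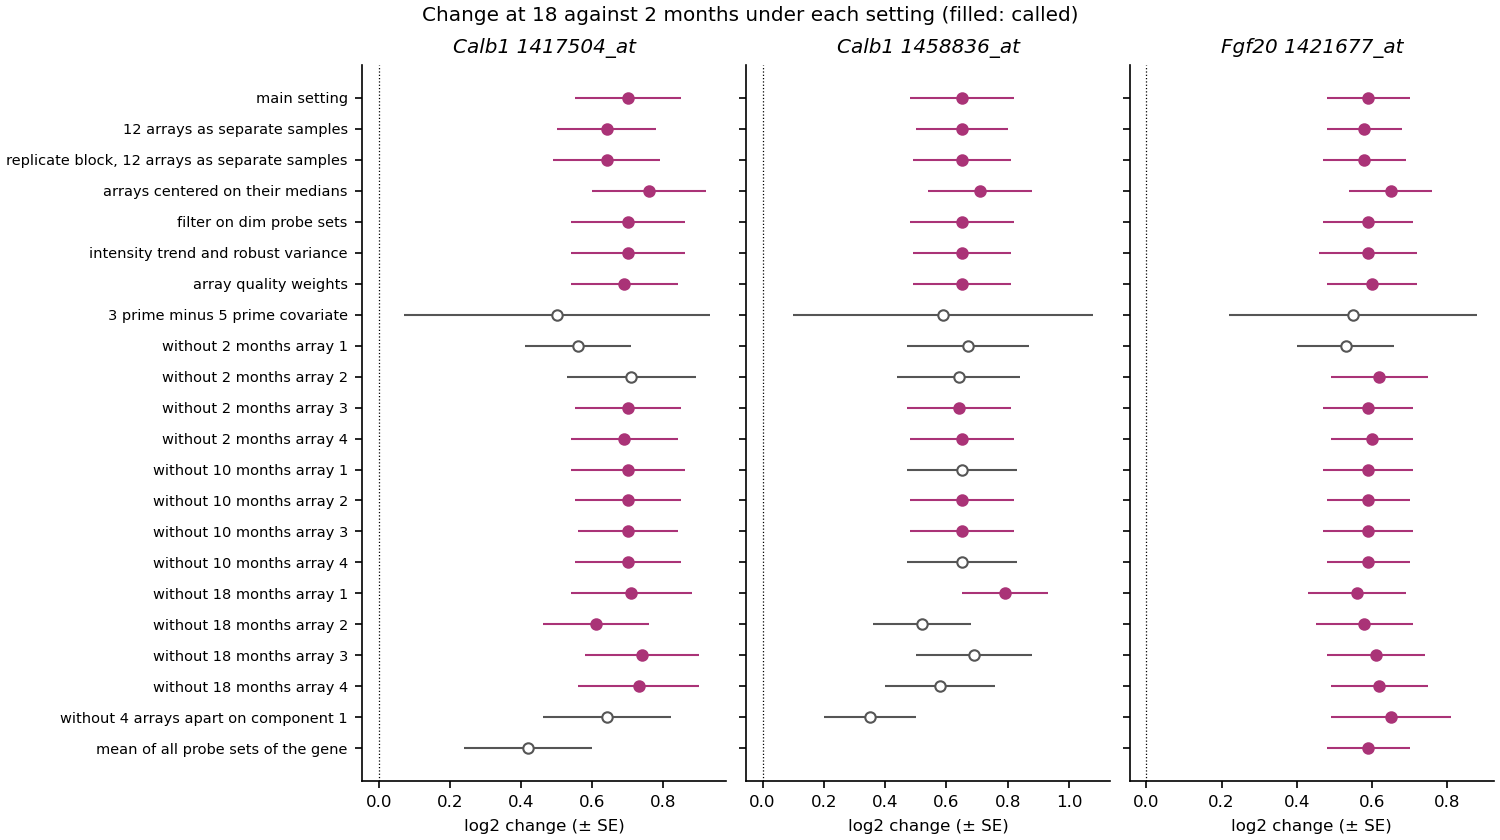
Calb1 (1417504_at and 1458836_at) and Fgf20 (1421677_at) under each way of processing the data (rows), as the log2 change between 18 and 2 months with its SE (horizontal axes). Filled points are called, all the changes drawn are positive, and Fgf20 loses the call without 2 months array 1 and with the 3 prime minus 5 prime covariate.

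Other genes of DA neurons went both ways. Of 9 other VTA-enriched genes, 0 were called higher and 1 lower at 18 against 2 months at their brightest probe sets, the lower one being Marcks, a regulator of actin at the membrane (−0.48 ± 0.12, adjusted p = 0.0342, with its 6 other probe sets between −0.41 and 0.53). Of 9 other SNpc-enriched genes, 1 was called higher, Kcns3, a modulatory potassium channel subunit (0.95 ± 0.17, adjusted p = 0.0107), and its second probe set was called higher too. Another probe set of the transcription factor Sox6 was also called higher. Of 10 genes of DA neurons in general, 2 were called higher and 2 lower at their brightest probe sets: Th, the enzyme that makes the precursor of dopamine, by 0.84 ± 0.14 (adjusted p = 0.00735), and the nicotinic receptor subunit Chrna6 by 0.68 ± 0.15 (adjusted p = 0.0226), against the transcription factors Foxa2 (−0.61 ± 0.15, adjusted p = 0.0290) and En1 (−0.54 ± 0.11, adjusted p = 0.0162). Beyond the brightest, 2 probe sets of the transcription factor Nr4a2 were called lower and 1 of the receptor Ret higher. Th was also higher at 10 against 2 months (0.84 ± 0.14, adjusted p = 0.0307). Beside these, general neuronal genes went both ways, with Snap25 and Syt1 called higher and Rbfox3 lower at their brightest probe sets, and another probe set of Snap25 and of Syt1 called lower.

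The markers moved together only in part. Over 45 pairs of markers the median correlation was 0.27, from −0.49 for Slc17a6 with Lpl to 0.95 for Calb1 with Aldh1a1, which was 0.83 with the mean of each age removed. Calb1 with Fgf20 gave 0.87, and 0.40 with the age means removed. All are over 11 samples that share age, dissection and array pattern, and carry no test. Of 12200 other genes above the median level, those most like Calb1 were Fam185a and Golt1b (r = 0.98 each), like Fgf20 A430033K04Rik (0.95) and Naaa (0.94), and like Aldh1a1 Cptp and Eif2b3 (0.96 each). Those most like Slc17a6 were Kcnd2 (0.96) and Ncoa5 (0.95), like Sncg Pcif1 (0.93) and Adh6b (0.92), and like Zdhhc2 Gfra1 (0.92), a receptor for glial cell line-derived neurotrophic factor, and Mrnip (0.91). By this r, likeness was lower for Neurod6 with Capza1 (0.89) and Dennd4a (0.84), Lpl with Rps6 (0.86) and 4930422I22Rik (0.85), Tacr3 with Sacm1l (0.86) and Rhpn2 (0.85), and Aldh1a7 with Jazf1 (0.86) and Cend1 (0.82). The order differed with the mean of each age removed. Lpl with Rps6 then gave 0.96, Calb1 with Fam185a 0.95 and Neurod6 with Capza1 0.92, while Fgf20 gave 0.65 with A430033K04Rik and with Naaa.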

How the data were processed

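VTA from wild-type mice was cut from coronal sections, and RNA of 5 mice was pooled for each array, so that p-values measure the spread between pools. According to the methods, the authors amplified the RNA in a two-cycle labeling assay and applied RMA to the array images, which gave the deposited log2 expression of each probe set (the submitters' processing notes name RMA and limma 3.4.5). Arrays have no read depth, and their number limits the precision. The 64 control probe sets were left out of the tests. Probe sets were named through the array's annotation (34945 with 1 gene, 932 with several, 9160 with none), of which 34741 matched the RefSeq gene table of GRCm38.p6 by gene number, and promoters were aligned with Biopython 1.88 (Python 3.11.15). The annotation gives no build, so no probe set coordinates are printed.

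All 3 ages entered 1 limma fit (limma 3.58.1, R 4.3.3; lmFit, contrasts.fit and eBayes, a mean per age), with Benjamini-Hochberg adjustment over all 45037 probe sets, tested on simulated data. Single values were compared by exact permutation tests. The markers, the other gene lists and the tests were chosen with earlier results of these data known. The genes named are all 10 markers, every gene of the other lists that was called at its brightest probe set, and the 2 genes most correlated with each marker; Nr4a2, Ret, Sox6, Fgfr2, Csf1r, Mbp, Slc6a3, Ttr and Sncb were named after their values were seen. Alternatives were separate arrays, a replicate block, median centering, a filter on dim probe sets, an intensity trend, array weights, the 3 prime minus 5 prime covariate, the mean over a gene's probe sets and leaving out each array.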

Additional observations from a re-analysis of the deposited data

Results flagged for a closer look

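In Neurod6 at 1418047_at, 10 months array 3 had a level of 7.90, against 6.55 to 6.76 in the other 3 arrays at 10 months, a gap that was large for the range of the group by Dixon's test. Among the marker probe sets 40 groups of 4 arrays were examined and this was the 1 that passed, where chance alone passes about 1 in 20. The same array lay on the positive side of the first principal component and had the lowest array weight (0.30).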

How the results depend on the processing

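Over 1230 alternative values for the markers, 0 called changes turned round, 16 lost the call, 8 gained it, and 73 uncalled values changed sign. At 18 against 2 months the 3359 called probe sets became 5339 with array weights and 0 with the 3 prime minus 5 prime covariate, and 423 (without 2 months array 1) to 5326 (without 10 months array 3) when 1 array was left out. The 3 called marker probe sets became 5 with array weights and 0 with the covariate, and 0 (without 2 months array 1) to 5 (without 10 months array 3) when 1 array was left out, with 1 left without 2 months array 2. At 10 against 2 months the 613 called probe sets became 977 with 12 separate arrays, 217 with an intensity trend, 2944 with array weights, 0 with the covariate, 2 without the 4 arrays on the positive side of the first component, and 1 to 1256 when 1 array was left out; the 0 called marker probe sets became 1, Fgf20, with 12 separate arrays. Centering split the 692 calls at 10 against 2 months into 531 higher and 161 lower, against 377 and 236. At 18 against 10 months the 1 called probe set became 0 with the covariate and 0 to 2 when 1 array was left out, while no marker was called in any setting. Same-numbered arrays showed no common direction of deviation (correlations −0.61 to 0.43), and not every array correlated best with its own number. Whether arrays with the same number shared anything beyond it was not tested. With the replicate block on the 12 separate arrays the calls were 2548, 3 and 0 for 18 against 2, 10 against 2 and 18 against 10 months (4460, 977 and 1 on the same arrays without the block). Among the markers they were 3, 0 and 0 (4, 1 and 0 without). The cause of these shifts was not tested. The covariate overlaps with age, and leaving out 1 array lowered the counts in some fits and raised them in others. The number of arrays limits what can be called: the median SE of the marker probe sets was 0.19.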

Other observations

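Markers of neighboring nuclei and of other cells bear on what the dissected region held. At 18 against 2 months 0 of 2 measured mammillary and subthalamic markers, 0 of 3 of the red nucleus and interpeduncular nucleus, 0 of 3 GABAergic, 0 of 5 astrocytic, 0 of 4 oligodendrocytic, 0 of 5 endothelial and 0 of 3 choroid plexus genes were called by limma at their brightest probe sets; 2 astrocytic genes, 1 gene of each of the red nucleus, GABAergic, oligodendrocytic, endothelial and choroid plexus lists and 0 mammillary genes had an unadjusted p under 0.05. Serotonergic genes varied most between arrays: the mean of 2 genes ran from 6.88 to 9.21 at 2 months, 5.38 to 7.89 at 10 months and 5.97 to 8.25 at 18 months, and 0 of 2 were called. The mean of the red nucleus and interpeduncular genes ran from 6.34 to 6.46 at 18 months, against 6.61 to 6.76 at 2 months, and that of the choroid plexus genes from 4.55 to 5.04 at 18 months, against 5.17 to 6.11 at 2 months, neither with overlap. Of the choroid plexus genes, Ttr, a carrier of thyroid hormone, differed by −1.92 ± 0.70 (adjusted p = 0.122). The choroid plexus genes Folr1 and Kl lay below the lower quartile on all arrays.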
